A study of Mus musculus with 9 samples.

Results

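The following describes 10 of the genes counted in mouse epididymal adipose tissue, 9 genes of the desmosome (*Pkp1*, *Pkp2*, *Pkp4*, *Dsp*, *Jup*, *Dsg1a*, *Dsg2*, *Dsc2* and *Perp*) and the kinase gene *Ripk4*. They are 10 of 56748 genes in the count table, and all 10 were among the 18510 genes tested. The members were chosen by symbol and with their levels in view, since the near loss of *Pkp1* and *Dsg1a* and the rise of *Ripk4* in the last phase were part of the choice. These 3 genes are therefore described by their reads and given no test. The other 7 members were tested between Pre and WL1 and between WL1 and WL2, and their values at WL2 against Pre are given as a description.

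Wild-type male C57BL/6J mice were fed high-fat diet (HFD) from 8 weeks of age for 8 weeks, and some then received standard diet (SD) to lose weight. RNA of whole epididymal adipose tissue was sequenced in 9 libraries, 3 at the end of HFD feeding (Pre), 3 after 1 week of SD (WL1) and 3 after 2 weeks of SD (WL2). No group carried a transgene or a drug, and all 3 phases had the same HFD feeding before tissue was taken. The phases differ in age as well as in diet, so time and diet cannot be told apart. The sources used here do not say whether a library came from 1 mouse, so the p-values measure the spread between libraries.

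Desmosomes are junctions that fasten neighbouring cells to each other and anchor their intermediate filaments. Desmogleins (Dsg) and desmocollins (Dsc) are cadherins that cross the membrane and bind those of the next cell. Their tails are held by the armadillo proteins plakoglobin (*Jup*) and the plakophilins (Pkp), and desmoplakin (*Dsp*) ties this plaque to the filaments. *Perp* encodes a small membrane protein required for desmosome assembly in stratified epithelia. *Ripk4* encodes a kinase with ankyrin repeats that is needed for keratinocyte differentiation and is known to phosphorylate plakophilin 1. The junctions are abundant in epidermis and heart muscle. In fat depots, the mesothelium on the surface is an epithelium with such junctions, whereas adipocytes are not known for them. Plakoglobin, plakophilin 2 and plakophilin 4 are also found at other contacts between cells, such as adherens junctions.

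Promoter sequence was found for 3 of the 10 members in the RefSeq table of assembly GRCm38.p6, and the 250 bases before the start are shown because the 3 genes span the range of levels in the tissue, from *Jup*, the most abundant member, to *Dsp*, which was close to no reads. Each runs 5′ to 3′ on the strand of the gene, and capitals mark GGGCGG, the core of the GC box bound by Sp factors, or its complement CCGCCC. *Jup* lies at chr11:100397791-100398040 on the minus strand, *Pkp4* (the upstream of 2 listed starts) at chr2:59160600-59160849 on the plus strand, and *Dsp* at chr13:38151044-38151293 on the plus strand.
Jup: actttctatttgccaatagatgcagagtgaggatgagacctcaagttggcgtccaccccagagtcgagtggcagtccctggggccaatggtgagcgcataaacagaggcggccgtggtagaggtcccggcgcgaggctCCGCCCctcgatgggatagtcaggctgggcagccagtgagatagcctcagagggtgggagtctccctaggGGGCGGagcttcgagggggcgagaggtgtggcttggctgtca
Pkp4: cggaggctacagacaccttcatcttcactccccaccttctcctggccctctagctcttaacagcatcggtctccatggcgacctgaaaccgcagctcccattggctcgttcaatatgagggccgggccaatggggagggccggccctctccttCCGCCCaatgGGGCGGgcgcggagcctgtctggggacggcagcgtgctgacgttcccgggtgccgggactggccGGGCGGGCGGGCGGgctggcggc
Dsp: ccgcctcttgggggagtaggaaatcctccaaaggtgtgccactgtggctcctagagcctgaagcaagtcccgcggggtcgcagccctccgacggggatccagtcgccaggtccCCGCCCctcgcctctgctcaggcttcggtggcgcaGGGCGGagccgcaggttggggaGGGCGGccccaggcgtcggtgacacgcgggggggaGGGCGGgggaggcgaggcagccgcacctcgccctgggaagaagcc

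Searched on both strands, with overlapping matches counted and in windows that also hold the 50 bases after the start, GGGCGG was found 2 times at *Jup*, 6 times at *Pkp4* and 4 times at *Dsp*. The same letters are in 35.7% of 32851 promoter windows of that length. The E-box CACCTG was found 1 time in the same 3 windows, at *Dsp*, and is in 20.2% of all windows. The letters TATAAA, in 13.6% of windows, and AACCNGTT, searched as the core of sites bound by Grhl factors and in 2.09% of windows, were in none of these 3 windows. The window of the second *Pkp4* start, which is not shown, held no GGGCGG and held CACCTG 1 time. The *Jup* and *Dsp* windows thus both held the GC box letters, while the levels of the 2 genes lay far apart.

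The libraries held between 16434450 and 22729072 counted reads. Library Pre 2 stood apart on the first principal component of log2 expression, at -81.1 against -20.3 and -26.5 for the other Pre libraries, and results that change without it are given both ways. The tissue label was checked against markers. The 8 adipocyte genes summed to 28060 to 34720 CPM (counts scaled to library size with TMM factors) at Pre, 20330 to 25770 CPM at WL1 and 25590 to 30060 CPM at WL2, and the 9 epididymis genes to at most 0.462 CPM. Of 14 keratinocyte genes, 3 (*Krt5*, *Krt6a* and *Flg*) had no read in any library, and the list's sum of 25.9 to 54.9 CPM came mostly from *Sbsn*, at 24.2 to 28.4 CPM on average, with *Lgals7* and *Dmkn* next. The 6 heart muscle genes summed to 2.03 to 5.85 CPM, with 2 of them at 0 throughout. In whole tissue, fewer cells of a type and less RNA per cell cannot be told apart.

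**Figure D1:**
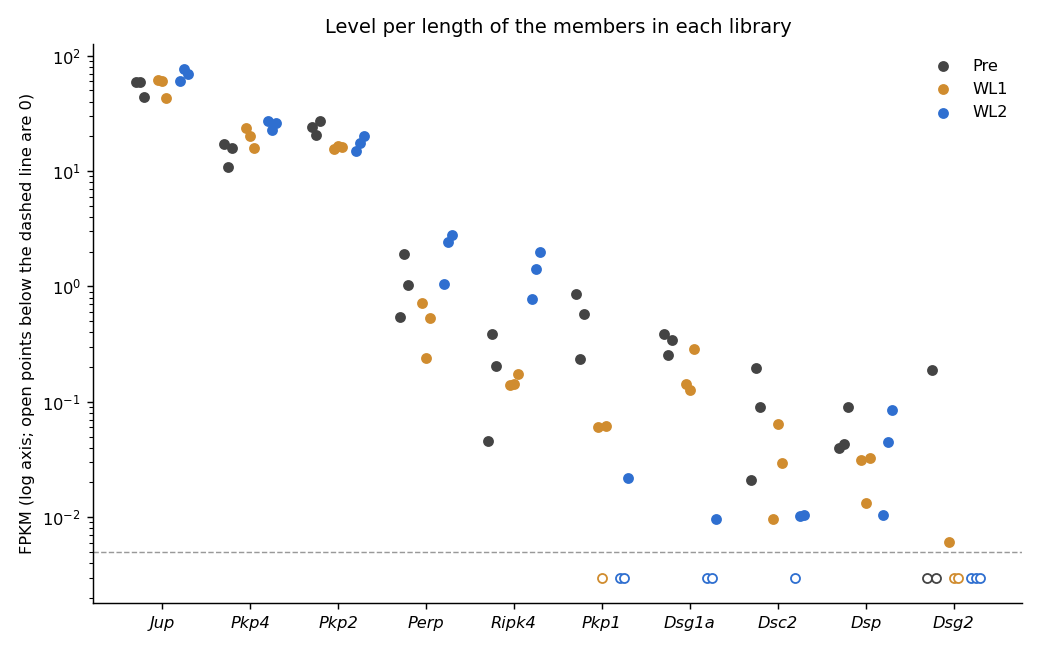
FPKM (fragments per kilobase and depth, log axis) of each member in each library, with colours for the 3 phases, ordered by the mean over 9 libraries. *Jup*, *Pkp4* and *Pkp2* lie above 10 FPKM in every library, *Perp* follows near 1, and the desmosomal cadherins and *Dsp* lie below 0.5, with open points for libraries at 0.

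Levels between genes were compared as FPKM, the authors' value per transcript length. *Jup* had the highest mean over the 9 libraries, at 59.3 FPKM, and ranked 784 of the 18510 genes tested. *Pkp4* followed at 19.8 FPKM and *Pkp2* at 19.2 FPKM. These 3 genes made up 95.9% to 99.4% of the members' summed FPKM in each library. *Perp* averaged 1.25 FPKM, *Ripk4* 0.586, *Pkp1* 0.202 and *Dsg1a* 0.172. *Dsc2* at 0.0479 FPKM, *Dsp* at 0.0433 and *Dsg2* at 0.0216 were the lowest, and *Dsg2* ranked 18462 of 18510. The plaque genes *Jup*, *Pkp4* and *Pkp2* were thus well expressed in this fat depot while the cadherins and desmoplakin were near the lower limit of counting. *Jup* exceeded *Dsp* between 487-fold and 5840-fold within single libraries.

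The order of *Pkp2* and *Pkp4* changed between phases. At Pre, *Pkp2* averaged 24.0 FPKM and *Pkp4* 14.6, and the ratio of *Pkp4* to *Pkp2* was 0.703, 0.535 and 0.584 in the 3 libraries. At WL1, the ratio was 1.5, 1.20 and 0.978, and at WL2 it was 1.82, 1.28 and 1.28. All Pre libraries therefore had more *Pkp2* than *Pkp4* per length, all WL2 libraries had more *Pkp4*, and 1 WL1 library had nearly equal levels. *Jup* stayed above both in all 9 libraries. The neighbours *Ripk4*, *Pkp1* and *Dsg1a* also changed places, since *Pkp1* had the highest mean of these 3 at Pre (0.558 FPKM) and *Ripk4* the highest at WL2 (1.39 FPKM).

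**Figure D2:**
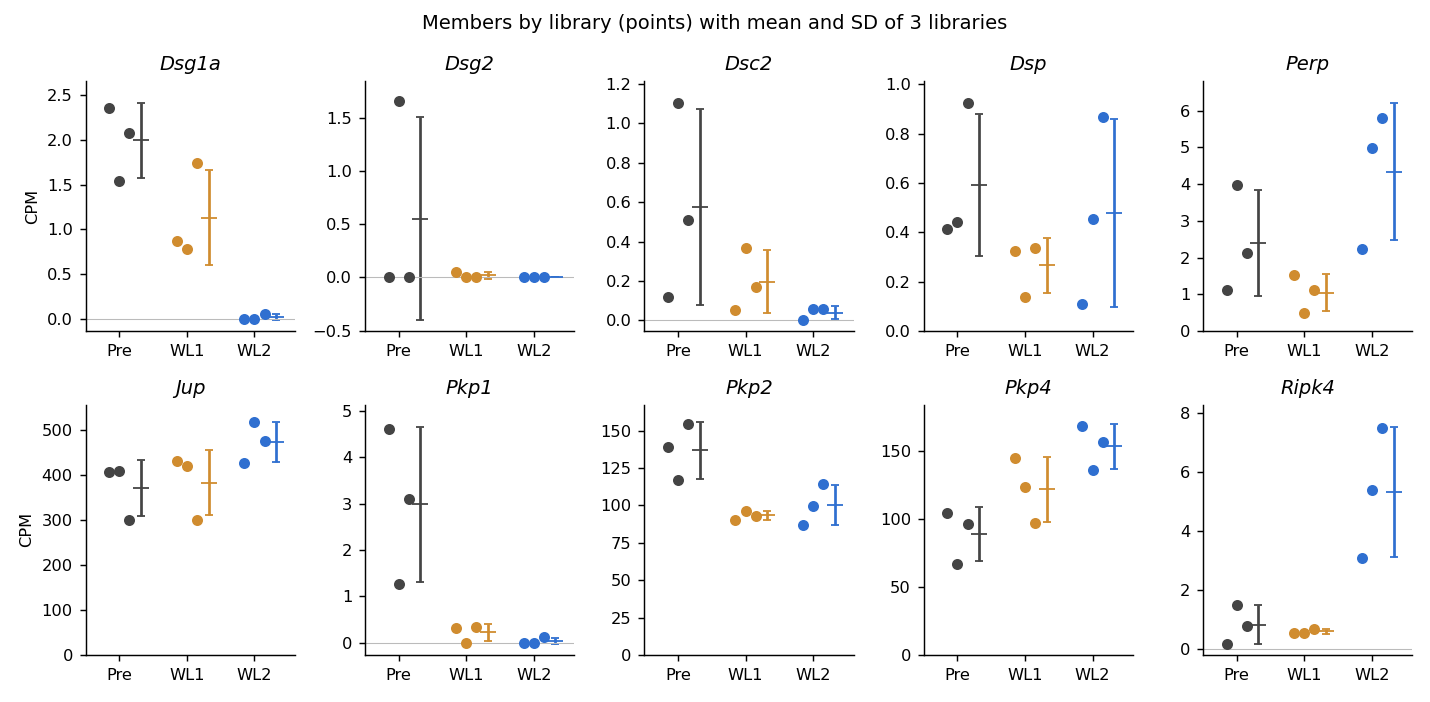
CPM of each member in the 9 libraries (points), with the mean and SD of the 3 libraries of a phase beside them (dash and bar), each panel on its own linear axis. *Pkp1* and *Dsg1a* end near 0 at WL2, *Ripk4* and *Perp* are highest there, and *Pkp2* is highest at Pre.

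Of the plaque genes, *Pkp2* fell in the first week of SD. It encodes plakophilin 2, which is best known from the junctions of heart muscle. *Pkp2* (ENSMUSG00000041957) lies at positions 16031182 to 16090576 of chromosome 16 in the authors' table. Its level was 139.1, 116.8 and 154.6 CPM at Pre, 90.4, 96.4 and 93.0 CPM at WL1, and 87.1, 99.3 and 114.3 CPM at WL2. All WL1 and WL2 libraries lay below all Pre libraries, and the WL1 libraries were close to each other. At WL1 against Pre the log2 fold change was -0.55 (SE 0.13, n = 3 and 3), with an adjusted p of 0.0345 (quasi-likelihood test of edgeR, Benjamini-Hochberg over all genes). The call was lost without Pre 1, Pre 3, any WL1 library or WL2 2, and with no TMM scaling. It was kept without Pre 2, and the estimate stayed between -0.66 and -0.46 in all 9 fits that left out a library. The adipocyte list was also lower at WL1 than at Pre, with no overlap of its sums. Of its 8 genes, 8 were lower and 3 passed the threshold, beside 7.29% of all genes. The part of this list in the results for *Pkp2* and *Cdsn* was not tested. At WL2 against WL1 the difference of *Pkp2* was 0.10 (SE 0.13, adjusted p 0.722 in the same edgeR test).

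*Pkp4* (ENSMUSG00000026991, chromosome 2, 58991194 to 59185552) encodes plakophilin 4, which is found at adherens junctions as well as desmosomes. Its level was 104.1, 66.5 and 96.1 CPM at Pre, 144.2, 123.5 and 96.9 CPM at WL1, and 168.2, 135.6 and 156.0 CPM at WL2. Pre and WL1 overlapped, since Pre 1 lay above WL1 3, and all WL2 libraries lay above all Pre libraries. The log2 fold change was 0.45 (SE 0.19, adjusted p 0.175, edgeR) in the first week, from Pre to WL1, and 0.33 (SE 0.19, adjusted p 0.347) in the second, from WL1 to WL2. Neither weekly step passed the threshold.

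*Jup* (ENSMUSG00000001552, chromosome 11, 100259784 to 100288589) encodes plakoglobin, the armadillo protein that binds both desmosomal and classical cadherins. The 3 Pre libraries had 405.8, 407.5 and 299.2 CPM, the WL1 libraries 429.5, 418.3 and 299.7 CPM, and the WL2 libraries 425.9, 516.4 and 475.1 CPM. The Pre and WL1 ranges almost coincided, and the WL2 libraries lay above all Pre libraries. The log2 fold change was 0.04 (SE 0.17, adjusted p 0.901, edgeR) in the first week, from Pre to WL1, and 0.30 (SE 0.17, adjusted p 0.342) in the second, from WL1 to WL2. The direction of the first of these turned without Pre 3, WL1 1 or WL1 2.

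*Dsp* (ENSMUSG00000054889, chromosome 13, 38335270 to 38382553) encodes desmoplakin, the link to intermediate filaments. It had 7, 8 and 20 reads at Pre, 6, 3 and 6 reads at WL1, and 2, 8 and 15 reads at WL2. In CPM, the WL1 libraries (0.138 to 0.337) lay below the Pre libraries (0.413 to 0.923), and the WL2 libraries spread over both ranges. The log2 fold change was -1.16 (SE 0.74, adjusted p 0.364, edgeR) in the first week, from Pre to WL1, and 0.83 (SE 0.75, adjusted p 0.589) in the second, from WL1 to WL2.

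*Pkp1* encodes plakophilin 1, the plakophilin of stratified epithelia. *Pkp1* (ENSMUSG00000026413) lies at positions 135799133 to 135846945 of chromosome 1. It had 78, 23 and 67 reads at Pre, 6, 0 and 6 reads at WL1, and 0, 0 and 2 reads at WL2. Every WL1 and WL2 library lay below every Pre library, and Pre 2 was the lowest Pre library at 1.27 CPM against 4.60 and 3.09 CPM. Over the libraries of a phase, scaled for depth, WL1 had 0.0699 times the reads of Pre (95% exact counting interval 0.0354 to 0.125), and WL2 had 0.0127 times (0.00153 to 0.0466). WL2 had 0.182 times the reads of WL1 (0.0198 to 0.816, from 2 and 12 reads). Most of the Pre reads were thus already missing at WL1. These intervals cover counting error only.

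The mean of *Pkp1* was 2.99 ± 1.67 CPM at Pre, 0.221 ± 0.192 CPM at WL1 and 0.0386 ± 0.0669 CPM at WL2 (SD, n = 3 each). At WL2 the level of *Pkp2*, in the same 3 libraries, was 87.1 to 114.3 CPM. The keratinocyte marker list, whose sum was 35.2 to 46.3 CPM at Pre, had 25.9 to 36.0 CPM at WL1 and 40.4 to 54.9 CPM at WL2. From Pre to WL2, the mean of *Lgals7* went from 3.58 to 11.2 CPM and that of *Dmkn* from 2.015 to 4.23 CPM. *Sbsn*, most of the sum, had 28.4 and 25.6 CPM, so the sum says little about the rest of the list. Of its 8 tested genes, 8 were lower at WL1 against Pre, with 1 past the threshold (*Trp63*), beside 7.29% of all genes. At WL2 against Pre, 5 were lower and 3 higher, and none passed, beside 10% of all genes. An unadjusted p under 0.05 in edgeR was reached there by 3 genes, beside 26% of all genes. These were *Trp63* (lower) and *Lgals7* and *Dmkn* (both higher). *Lor*, 1 of the 8, passed the filter through Pre 1 alone, so its lower direction in both comparisons was favoured in advance. The part of keratinocyte-like RNA in the fall of *Pkp1* was not tested. The tested genes with a mean of at least 1 CPM whose log2 CPM was most like that of *Pkp1* over the 9 libraries were *Mapk6* (Pearson r 0.984), *Slc2a10* (0.979) and *Gsdme* (0.963). The libraries share depth and phase, and all 3 genes kept a level above 9 CPM in every library. *Mapk6* ran from 91.7 to 104.0 CPM at Pre, 64.8 to 72.9 CPM at WL1 and 63.8 to 70.5 CPM at WL2, a much smaller change than that of *Pkp1*.

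*Dsg1a* (ENSMUSG00000069441), whose product is a desmoglein of epidermis, had 40, 28 and 45 reads at Pre, 16, 17 and 31 reads at WL1, and 0, 0 and 1 read at WL2. In CPM it was 2.36, 1.54 and 2.08 at Pre, and 0.869, 0.781 and 1.74 at WL1. The highest WL1 library thus lay above the lowest Pre library, and the WL2 libraries, at 0, 0 and 0.0579 CPM, lay below all others. Over the libraries of a phase, WL1 had 0.555 times the reads of Pre (95% exact counting interval 0.402 to 0.760), and WL2 had 0.0170 times the reads of WL1 (0.000425 to 0.0984). WL2 had 0.00945 times the reads of Pre (0.000237 to 0.0537).

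Side by side, WL1 held 0.0699 times the Pre reads of *Pkp1* and 0.555 times those of *Dsg1a*. *Pkp1* did not overlap between Pre and WL1, and *Dsg1a* did. The genes closest to *Dsg1a* over the 9 libraries by log2 CPM were *Kcnj14* (Pearson r 0.994), *Faf2* (0.993) and *Adamts2* (0.988). *Kcnj14* encodes an inwardly rectifying potassium channel and ran from 21.4 to 29.1 CPM at Pre, 13.3 to 17.3 CPM at WL1 and 2.03 to 2.95 CPM at WL2. *Adamts2*, a procollagen protease gene, ran from 217 to 261 CPM at Pre and 107 to 128 CPM at WL2.

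*Dsg1a* shares sequence with its neighbours in the desmoglein cluster. In the GENCODE M21 transcripts, 35% of its stretches of 50 bases, and 24.6% of those of 100 bases, also occur in another desmoglein gene. *Dsg1b*, *Dsg1c*, *Dsg2*, *Dsg3* and *Dsg4* were searched together for this. For *Dsg1b*, searched against *Dsg1a* and *Dsg1c*, the shares were 48.4% and 32.8%. The split of reads between *Dsg1a* and *Dsg1b* is therefore uncertain. Taken as a pair, the 2 genes had 60, 36 and 60 reads at Pre, 17, 22 and 37 reads at WL1, and 0, 0 and 1 read at WL2, so the pair followed the course of *Dsg1a* alone. The other members shared no stretch of 50 bases with the relatives compared.

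*Dsc2* encodes desmocollin 2, the desmocollin of simple epithelia and heart. It had 2, 20 and 11 reads at Pre, 1, 8 and 3 reads at WL1, and 0, 1 and 1 read at WL2. The log2 fold change was -1.49 (SE 0.90, adjusted p 0.338, edgeR) in the first week, from Pre to WL1, and -2.23 (adjusted p 0.334) in the second, from WL1 to WL2. The WL2 libraries were all at or below 0.0579 CPM and the Pre libraries at or above 0.118 CPM, while the WL1 range touched both. *Dsg2*, the most widely expressed desmoglein, had 30 reads in library Pre 2, 1 read in WL1 1 and none in the other 7. Both genes passed the filter of 0.5 CPM through Pre 2 alone, so their presence among the tested genes rests on that library. At WL1 against Pre, *Dsg2* did not pass (adjusted p 0.233, edgeR), and without Pre 2 the sign of its difference turned.

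Over all 9 desmogleins and desmocollins in the table, 62, 111 and 71 reads were counted at Pre, 19, 30 and 40 at WL1, and 0, 1 and 2 at WL2. The sum over phases was 244, 89 and 3 reads. Without *Dsg1a*, which was chosen by its level, it was 131, 25 and 2 reads, of which Pre 2 alone gave 83. Without *Dsg1a* and *Dsg1b*, whose reads cannot be told apart with certainty, the libraries held 2, 75 and 11 reads at Pre, 2, 8 and 3 at WL1, and 0, 1 and 1 at WL2, so the fall of the remaining cadherins rested mainly on Pre 2. The summed level per length was 0.597 to 0.993 FPKM at Pre and at most 0.0200 FPKM at WL2, while *Jup*, whose product binds the tails of these cadherins, stayed between 43.2 and 76.0 FPKM in all libraries. The WL2 libraries thus had the lowest cadherin sums, while their *Jup* levels lay above those of all Pre libraries.

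*Perp* (ENSMUSG00000019851, chromosome 10, 18720768 to 18732821) had 19, 72 and 46 reads at Pre, 28, 11 and 20 reads at WL1, and 41, 88 and 100 reads at WL2. In CPM these were 1.12, 3.97 and 2.12 at Pre, 1.52, 0.505 and 1.12 at WL1, and 2.25, 4.99 and 5.79 at WL2. The WL2 libraries lay above all WL1 libraries and overlapped those of Pre. At WL2 against WL1 the log2 fold change was 2.05 (SE 0.55), and the adjusted p of 0.0668 in the edgeR test missed the threshold. It passed with DESeq2 (adjusted p 0.00403), with the WL1 and WL2 libraries fitted alone (0.0438), with no filter on low counts (0.00795), and without Pre 1, Pre 2 or WL2 1. At WL1 against Pre the log2 fold change was -1.20 (SE 0.55, adjusted p 0.212, edgeR).

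*Ripk4* (ENSMUSG00000005251, chromosome 16, 97543133 to 97564987) had 3, 27 and 17 reads at Pre, 10, 12 and 12 reads at WL1, and 56, 95 and 129 reads at WL2. The WL2 libraries, at 3.07, 5.38 and 7.47 CPM, lay above all 6 earlier libraries, of which Pre 2 was the highest at 1.49 CPM. Pre and WL1 overlapped, at 0.177 to 1.49 CPM and 0.543 to 0.675 CPM. Over the libraries of a phase, WL2 had 6.36 times the reads of Pre (95% exact counting interval 4.66 to 8.86) and 8.98 times those of WL1 (6.28 to 13.2), and WL1 had 0.708 times those of Pre (0.442 to 1.12). The rise was thus seen in the second week, after most *Pkp1* reads had gone. The intervals cover counting error and leave out the spread between libraries, and they are no test of a gene chosen for its rise. In FPKM, *Ripk4* averaged 0.214 at Pre, 0.152 at WL1 and 1.39 at WL2. Among the genes closest to it by log2 CPM over the 9 libraries were *P3h4* (Pearson r 0.981) and *Cldn10* (0.978), a claudin gene of tight junctions that ran from 0.531 to 2.87 CPM at Pre and 3.89 to 8.28 CPM at WL2.

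Markers of mesothelium moved with *Perp* and *Ripk4*. The 14 mesothelium genes, of which none was at 0, summed to 129.3, 577.8 and 529.7 CPM at Pre, 416.9, 156.4 and 225.4 CPM at WL1, and 453.9, 840.0 and 1098 CPM at WL2. The largest were *Upk3b* (117.0 ± 89.0, 56.9 ± 42.2 and 225.0 ± 101 CPM, SD, n = 3 each), *Cldn15* and *Msln*. At WL2 against WL1, 14 of 14 were higher and 1 passed the threshold (*Nkain4*, log2 fold change 2.19, adjusted p 0.0206, edgeR), with 13 at an unadjusted p under 0.05, beside 3.68% of all genes past the threshold and 21.4% at that unadjusted p. The call of *Nkain4* was lost without WL1 2, WL1 3, WL2 2 or WL2 3. At WL2 against Pre, 14 of 14 were higher and 1 passed (*Cldn15*), beside 10% of all genes. At WL1 against Pre, 13 of 14 were lower and none passed, beside 7.29% of all genes. There, 1 had an unadjusted p under 0.05 in edgeR, beside 24.3% of all genes. *Perp* had 4.01 to 8.66 reads per 1000 reads of the mesothelium list at Pre, 3.23 to 4.99 at WL1 and 4.95 to 5.94 at WL2, so its WL2 values lay within the range of Pre. *Ripk4* had 1.37 to 2.57 reads per 1000 at Pre, 1.30 to 3.52 at WL1 and 6.41 to 6.80 at WL2. By this ratio, its WL2 libraries lay above all earlier ones. Both ratios lean on *Cldn15*, which gave 1188 of 2193 list reads in Pre 1 and 1996 of 3407 in WL1 2. In WL2 3 it gave 2243 of 18969. *Cldn15* was the 1 list gene that was higher at WL1 against Pre. With *Cldn15* left out of the list, WL1 2, with 12 *Ripk4* reads, lies above WL2 2 and WL2 3, with 95 and 129 reads. The separation of WL2 by the *Ripk4* ratio therefore holds only with *Cldn15* counted. The part of mesothelium in these results was not tested.

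**Figure D3:**
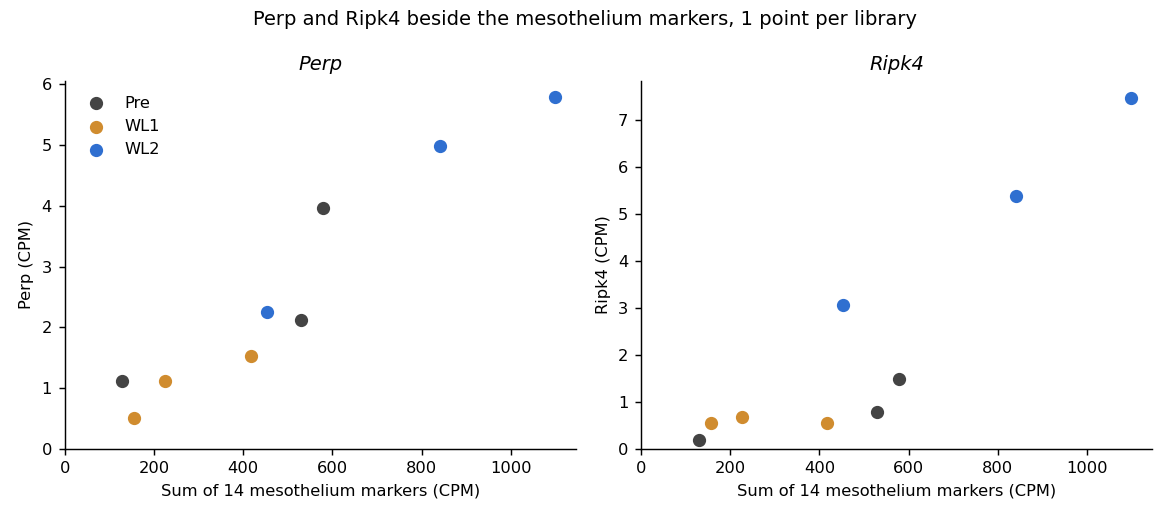
*Perp* (left) and *Ripk4* (right) in CPM against the summed CPM of 14 mesothelium marker genes, with 1 point per library coloured by phase. *Perp* rises along the marker sum over all phases, whereas WL2 1 holds more *Ripk4* than the 2 Pre libraries with a somewhat higher marker sum, and the other WL2 libraries lie beyond the Pre range of that sum.

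Over the members as a group, 1 of the 7 tested members (*Pkp2*) passed the threshold at WL1 against Pre, beside 7.29% of all genes tested in that comparison. At WL2 against WL1, 0 of 7 passed by edgeR, beside 3.68% of all genes. 1 of the 7 (*Perp*) had an unadjusted p under 0.05 by edgeR, and the same gene passed by DESeq2. These counts are near the background. No median is given over the 7, because *Dsg2* and *Dsc2* passed the filter through Pre 2 alone, where they were high. At WL2 against Pre, 10% of all genes passed, and no call is given for the members because this comparison was in view when they were chosen. Groups of libraries that do not overlap were common, at 28.7% of all genes between Pre and WL1, 30.9% between Pre and WL2 and 30.3% between WL1 and WL2.

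**Figure D4:**
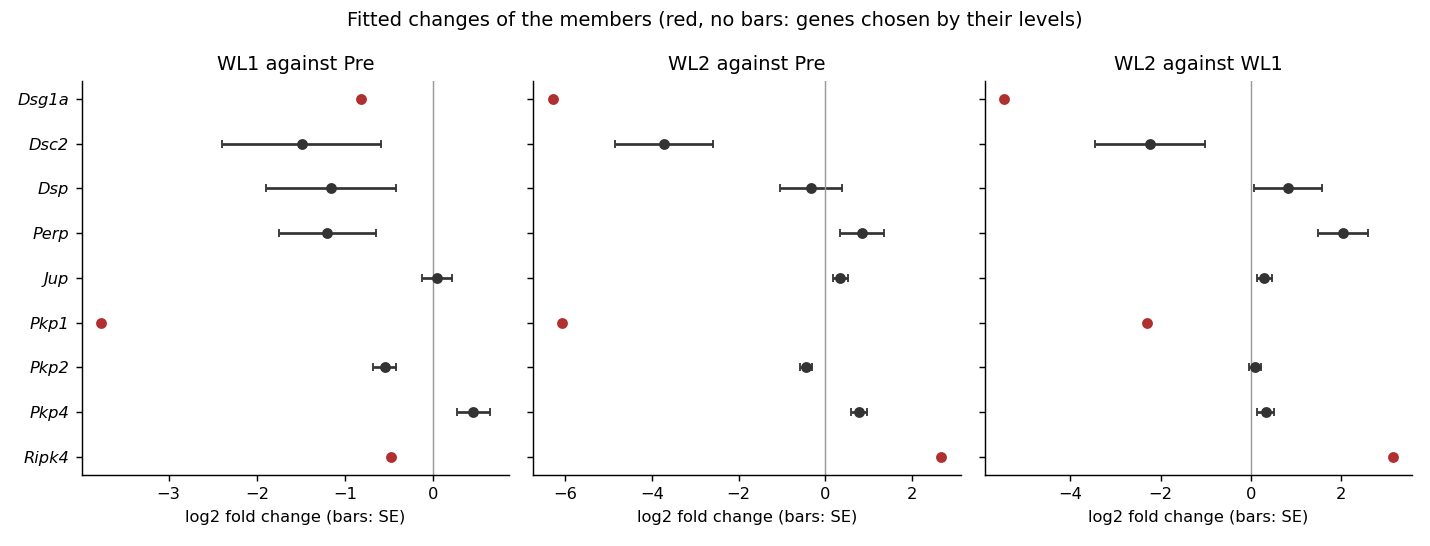
Log2 fold change of 9 members in the 3 comparisons, with bars for the SE of the edgeR fit and, for the 3 genes chosen by their levels, red points without bars. *Dsg2* is not drawn because its WL2 libraries hold no read, and the low-count genes *Dsc2*, *Dsp* and *Perp* have wider bars than *Jup*, *Pkp2* and *Pkp4*.

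Among the other desmosome genes, *Cdsn* fell in the first week and *Dsg1b* had no read at WL2. Of 10 in the list, 3 (*Dsg3*, *Dsg4* and *Dsc1*) had no read and 6 were tested. *Cdsn*, which encodes corneodesmosin, a glycoprotein of modified desmosomes in the outer epidermis, was abundant, with a mean of 50.7 FPKM. It had 191, 217 and 195 CPM at Pre, 86.9, 101 and 75.6 CPM at WL1, and 102, 187 and 151 CPM at WL2. Every WL1 library lay below every Pre library, by -1.19 on the log2 scale (SE 0.20, adjusted p 0.00742, edgeR), and the call held without any 1 of the 9 libraries. The WL2 libraries lay between those of WL1 and Pre, and neither WL2 against WL1 (0.74, adjusted p 0.0659) nor WL2 against Pre (-0.46, adjusted p 0.172) passed. The former passed with no filter, with DESeq2 and without WL2 1.

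*Dsg1b* had 20, 8 and 15 reads at Pre, 1, 5 and 6 at WL1 and none at WL2. At WL2 it was at least 13.4-fold lower than at Pre when 3 reads are set as the floor over the WL2 libraries, with the uncertainty of shared sequence given above. Its adjusted p of 0.0135 in edgeR is no independent support, since the gene passed the filter through Pre 1 and Pre 3 alone, and it was not tested when 0.5 CPM was required in 3 libraries. *Dsc3* had 22 reads, all in Pre 2. *Pkp3* and *Evpl* passed in no comparison. *Ppl*, the periplakin gene, had 85 to 273 reads per library at Pre, 64 to 144 at WL1 and 190 to 557 at WL2. From WL1 to WL2 its log2 fold change was 2.00 (SE 0.49), and the adjusted p of 0.0511 (edgeR) narrowly missed the threshold. It passed there with no filter, with 0.5 CPM in 3 libraries, with DESeq2, with RLE factors, with library totals alone, with the 2 phases alone, and without Pre 1, Pre 2 or WL2 1. *Ppl* at WL2 against Pre (1.26, adjusted p 0.119, edgeR) passed with no filter and with DESeq2. No median is given over the 6 tested genes, because *Dsg1b* and *Dsc3* were tested through Pre libraries alone.

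The hemidesmosome, which fastens epithelial cells to the basement membrane, had 6 tested genes. Against Pre, 1 was called at WL1 and 3 at WL2, all lower, beside 7.29% and 10% of all genes. Calls over all genes also leaned lower, with 868 lower and 482 higher at WL1 and 1233 lower and 620 higher at WL2. *Plec* encodes plectin, a plakin linking filaments to junctions, and had 225, 449 and 265 CPM at Pre, 327, 262 and 340 CPM at WL1, and 146, 127 and 156 CPM at WL2. The WL2 libraries lay below all others, with log2 fold changes of -1.13 (SE 0.23, adjusted p 0.0132, edgeR) against Pre and -1.11 (SE 0.23, adjusted p 0.0316) against WL1. The first call was lost without WL2 2, and the second without any WL1 library, WL2 2 or WL2 3. *Cd151*, a tetraspanin gene, fell at WL1 (-0.53, adjusted p 0.0315) and was at the same distance from Pre at WL2 (-0.51, adjusted p 0.0281). *Itga6*, an integrin gene that is also expressed by endothelium, was lower at WL2 against Pre (-0.63, adjusted p 0.0449). Among fits without 1 library, *Cd151* kept its WL1 call only without Pre 3 or WL2 1 and its WL2 call only without Pre 3 or a WL1 library, and *Itga6* kept its call only without Pre 2, WL1 1 or WL1 3. With no TMM scaling, the calls of *Cd151* and *Itga6* were lost. Part of *Plec* overlaps *Parp10* on the same strand in the table.

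Few genes of other junctions and filaments passed. Of 14 tested adherens junction genes, 0 passed in any of the 3 comparisons by edgeR, with 0, 4 and 0 at an unadjusted p under 0.05 for Pre with WL1, Pre with WL2 and WL1 with WL2. *Nectin1* was called at WL2 against Pre by DESeq2 and by edgeR with no filter. *Ctnnb1*, the beta-catenin gene and closest relative of *Jup*, averaged 404 CPM at Pre, 366 CPM after 1 week and 338 CPM after 2 weeks of SD. Of 12 tested tight junction genes, *Cldn15* alone passed, higher at WL2 against Pre (log2 fold change 0.74, SE 0.17, adjusted p 0.0197, edgeR), and the call was lost without Pre 1, Pre 2, WL2 2 or WL2 3. Of 8 tested intermediate filament genes, 0 passed by edgeR, with 1, 2 and 5 at an unadjusted p under 0.05, beside 24.3%, 26% and 21.4% of all genes. DESeq2 called *Krt18* at WL2 against Pre and against WL1. From WL1 to WL2, edgeR called *Krt7*, *Krt8*, *Krt18* and *Krt19*, all higher, with no filter on low counts, and *Krt7* and *Krt19* with the 2 phases alone or without Pre 1. *Krt19*, which is also in the mesothelium list, had 3.24 to 29.5 CPM at Pre, 4.59 to 14.1 CPM at WL1 and 27.3 to 70.9 CPM at WL2. *Vim*, the filament gene of mesenchymal cells, had the highest level of these, at 2549, 3237 and 2260 CPM on average.

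Relatives and candidate regulators were examined next. *Ripk3*, the kinase of necroptosis, rose at WL1 from 11.1, 11.4 and 10.7 CPM to 17.8, 18.1 and 20.2 CPM (log2 fold change 0.75, SE 0.12, adjusted p 0.00557, edgeR) and was back at 11.7, 11.7 and 10.8 CPM at WL2 (-0.71 against WL1, adjusted p 0.0160). Its course was thus unlike that of *Ripk4*, which was at its lowest mean at WL1. The call at WL1 passed without any 1 library, and that at WL2 was lost without WL1 3, WL2 2 or WL2 3. The macrophage list, whose sum was 483 to 896 CPM at Pre, 1252 to 2249 CPM at WL1 and 580 to 1140 CPM at WL2, moved with *Ripk3*, and its part in this result was not tested. The other 3 tested RIP kinase genes did not pass.

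Of 10 tested epithelial transcription factor genes, *Trp63*, a regulator of *Perp* and of desmosome genes in epidermis, had 36, 42 and 39 reads at Pre, 15, 17 and 6 at WL1 and 12, 17 and 16 at WL2. It was lower at WL1 (log2 fold change -1.67, SE 0.40, adjusted p 0.0333, edgeR), and among fits without 1 library the call was kept only without Pre 3, WL2 1 or WL2 3. At WL2 against Pre, when *Ripk4* was high, *Trp63* stood at -1.29 (adjusted p 0.0656). *Klf4*, a transcription factor of epidermal barrier formation that other cells also use, rose at WL2 from 65.0, 74.4 and 80.1 CPM at Pre to 109, 122 and 137 CPM (0.75, SE 0.14, adjusted p 0.00920, edgeR), and passed without any 1 library. Of the relatives of *Perp*, *Emp1*, an epithelial membrane protein gene, was lower at WL2, at 369, 301 and 367 CPM against 549 to 639 CPM at Pre (-0.80, SE 0.13, adjusted p 0.00407, edgeR). *Perp* stood at 0.85 (SE 0.52) in the same comparison, with overlapping libraries, so its direction there is uncertain. The call of *Emp1* against Pre passed without any 1 library, whereas its call against WL1 (-0.71, adjusted p 0.0229) was lost without WL1 1, WL1 3, WL2 2 or WL2 3.

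**Figure D5:**
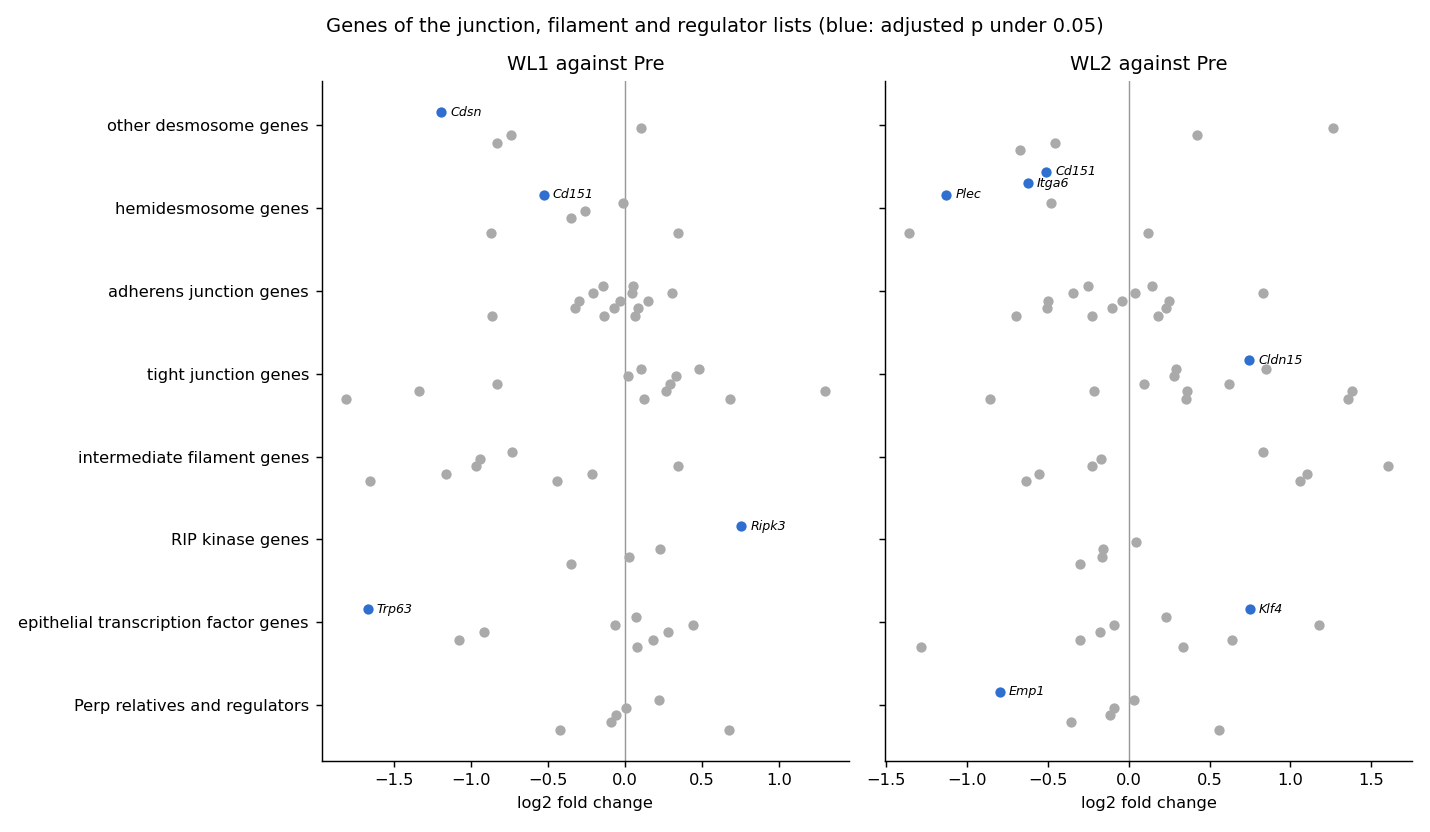
Log2 fold change of the tested genes of 8 lists at WL1 and at WL2 against Pre, with blue points and names for genes past an adjusted p of 0.05 in edgeR. *Dsg1b*, *Dsc3* and *Ovol1* are not drawn because 1 phase holds no read, and the remaining called genes lie between -1.67 and 0.75.

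Over all 8 lists, 66 of 85 genes were tested. At WL1 against Pre, 4 passed, 1 higher and 3 lower, or 6.06% beside the 7.29% of all genes given above. At WL2 against Pre, 7 passed, 2 higher and 5 lower with *Dsg1b* counted, or 10.6% beside 10%, and at WL2 against WL1, 3 passed, all lower, or 4.55% beside 3.68%. The shares of called genes were thus near those of all genes. The median log2 fold change over the lists was -0.06, -0.07 and 0.0003 in the 3 comparisons. The tested genes include *Dsg1b*, *Dsc3* and *Ocln*, which passed the filter through Pre libraries alone, and *Ovol1*, which passed through WL1 1 alone. The shares and medians are therefore given as a description.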

How the data were processed

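The authors deposited a table of counts per gene (whole numbers, not normalized) and, for the same 9 libraries, a second table with the FPKM of each gene. The submitters' processing notes name CASAVA, HISAT, HISAT2 and TopHat2, and the builds GRCm38 and mm10. The counting program, its annotation and its strand setting were not given in the sources used here. Start and end matched those of GENCODE M21 (GRCm38) for 1472 of 52073 genes found in both, so gene coordinates are those of the authors' table, without a build. The deposited FPKM implied library totals of 0.995 to 1.01 times the summed counts at Pre, 1.07 to 1.11 at WL1 and 1.11 to 1.12 at WL2. FPKM was used for levels between genes, for the few phase levels given in FPKM, and in limma. The phase levels were not corrected for these totals. The main tests used counts.

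Groups and replicate numbers came from the sample titles. Genes reaching 0.5 CPM in 1 or more libraries entered the quasi-likelihood test of edgeR 4.0.16 under R 4.3.3 (glmQLFit and glmQLFTest with TMM factors, all 9 libraries in 1 model). Adjustment was by Benjamini-Hochberg over 18510 genes, and the threshold was 0.05. The fit was tried on simulated data, with changes set in 200 genes of at least 1 CPM on average. At WL1 against Pre, 58 of 100 2-fold and 89 of 100 4-fold changes were recovered, with 13 false calls. At WL2 against Pre these numbers were 54, 88 and 9. Genes at lower levels, such as *Dsp*, *Dsc2* and *Dsg2*, were given no change there, so their recovery is not known. SE is on the log2 scale, and log2 CPM used a prior count of 2. Count ratios have exact conditional binomial intervals (95%), which leave out the spread between libraries. The filter kept 2 members, *Dsg2* and *Dsc2*, through Pre 2 alone. Alternatives were DESeq2 1.42.0, limma 3.58.1 on log2(FPKM + 1) and log2(FPKM + 0.1), other filters and scalings, the compared phases alone, a replicate block, and leaving out each library. All 10 members are named, with the listed genes past the threshold (where none passed, those with the highest FPKM), the marker genes with the highest CPM, and the 3 genes most like each of *Pkp1*, *Dsg1a* and *Ripk4*. Of those most like *Ripk4*, 1 is not reported here. *Dsc3*, *Pkp3*, *Evpl*, *Ppl* and the markers *Krt5*, *Krt6a*, *Flg* and *Nkain4*, and genes named for a call under an alternative, were named after their values were seen. The members and lists were chosen with earlier results of these data known. Marker lists for endothelium, lymphatic vessels and neurons were also summed. Blood endothelium ran from 847 to 1650 CPM, lymphatic endothelium from 69.1 to 170 CPM, and neurons and glia from 5.13 to 13.0 CPM. No pair of libraries was identical.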

Additional observations from a re-analysis of the deposited data

How the results depend on the processing

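Members that passed numbered 1 at WL1 against Pre, and 0 with library totals alone, 0 with a replicate block and 0 to 1 without 1 library each. At WL2 against WL1 they numbered 0, and 1 with no filter, 1 with DESeq2, 1 with the 2 phases alone and 0 to 1 without 1 library each. Listed genes that passed numbered 4 at WL1 against Pre, 5 with no filter, 6 with DESeq2, 2 with the 2 phases alone, and 2 to 4 without 1 library each. At WL2 against Pre they numbered 7, and 10 with no filter, 11 with DESeq2 and 3 to 9 without 1 library each (4 without Pre 1 or WL2 3, 3 without WL2 2). At WL2 against WL1 they numbered 3, and 14 with no filter, 11 with DESeq2, 7 with the 2 phases alone and 0 to 6 without 1 library each (0 without WL1 3, WL2 2 or WL2 3). Mesothelium and keratinocyte markers that passed numbered 1 at WL1 against Pre (*Trp63*), 2 with no filter or DESeq2, 0 with a replicate block or the 2 phases alone, and 0 to 1 without 1 library each. At WL2 against Pre they numbered 1 (*Cldn15*), and 4 with no filter, 6 with DESeq2 and 0 to 2 without 1 library each. The cause of these shifts was not tested.

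Without 1 library each, *Jup* at WL1 against Pre ran from -0.0882 to 0.18, *Dsg2* in the same comparison from -6.37 to 1.85 and *Pkp2* at WL2 against WL1 from -0.0013 to 0.20, with none of these past the threshold. Same-numbered libraries deviated together with correlations of -0.233 to 0.0913, so the numbers do not pair them. With the block, *Pkp2* at WL1 against Pre had an adjusted p of 0.0520. DESeq2 gave *Dsg1b* no adjusted p at WL2 against Pre. Depth limits the cadherins and *Dsp*, whose libraries hold 0 to 45 reads.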
